A study of Homo sapiens with 6 samples.

Results

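The transcripts that free, export, break down and build sialic acid were measured by RNA sequencing in 6 libraries of THP-1, an established cell line from a human monocytic leukaemia. The part described is a set of 9 genes: NPL, NEU1, NEU3, CTSA, SLC17A5, GNE, NANS, NANP and CMAS. They were picked by name, as genes of 1 pathway, out of 26347 gene identifiers in the count table, and all 9 were among the 14731 genes that passed the filter on low counts. The set was proposed with the lower level of NPL after the mimic in these libraries already known. All values below that set one mimic against the other for these 9 genes are therefore a description. Where calls from fits over the whole table are given for these genes, nothing is read from the calls. Of the libraries, 3 came from cells transfected with a miR-125a-5p mimic, a synthetic copy of that microRNA, and 3 from cells transfected with a negative control microRNA mimic. All cells were grown in RPMI with fetal bovine serum, and RNA was taken 24 h after transfection. The series title speaks of macrophages, but the labels name monocytic cells and no differentiation step. The labels do not say whether the 3 libraries of a group came from separate cultures, so the spread between them may be technical.

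Sialic acids are acidic sugars that cap the outer ends of glycoprotein and glycolipid chains. In the lysosome a sialidase clips them off and a carrier in the lysosomal membrane lets the free sugar into the cytosol, where it is either activated again for use in the Golgi or split by a lyase into N-acetylmannosamine and pyruvate. New sialic acid is built from UDP-N-acetylglucosamine by a short chain of cytosolic enzymes. On monocytes and macrophages sialic acid is also a ligand of the Siglec receptors, and surface sialidase activity is known to change as monocytes differentiate. A microRNA pairs through its seed, bases 2 to 8, with complementary sites in the 3′ untranslated region (3′ UTR) of a messenger RNA, which commonly lowers the level of that messenger.

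The mature microRNA and the matches to its seed in NPL, NEU1 and NEU3 are shown first. NPL and NEU1 had the lowest log2 fold changes of the set and both held the full 8-base match. NEU3, the other sialidase measured, held a shorter one. The genes shown were chosen with their fold changes known, and whether a match affects the level of its messenger was not tested. Sequences run 5′ to 3′. Capitals mark the seed in the microRNA (RefSeq, GRCh38.p14) and the matched bases in the 3′ UTRs (GENCODE release 29, GRCh38).
miR-125a-5p: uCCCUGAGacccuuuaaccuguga
NPL: aaatagtgcatttttttCTCAGGGAatt
NEU1: aattgaatcaatgtgaaCTCAGGGAact
NEU3: cttatatgaggcccactgTCAGGGAaaa

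The NPL stretch is at chr1:182828957-182828984 on the plus strand, in the 3′ UTR part of exon 10 of 10, and its matched bases run from 182828974 to 182828981. NPL as a whole spans chr1:182789293-182830384. The site starts at base 251 of a 3′ UTR of 1661 bases, and 3 of the 4 distinct annotated 3′ UTRs of NPL hold it. A second, 6-base match TCAGGG lies 44 bases before it. The NEU1 stretch is at chr6:31859377-31859404 on the minus strand, in the 3′ UTR part of exon 6 of 6, with the matched bases from 31859380 to 31859387. NEU1 spans chr6:31857659-31862906, and its single annotated 3′ UTR, of 667 bases, has the site near its middle, from base 332 to base 339. The NEU3 stretch is at chr11:75008296-75008323 on the plus strand, in exon 3 of 3.

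The 4 kinds of match were searched on the strand of the messenger. The 8mer was CTCAGGGA, the 7mer-m8 is CTCAGGG, the 7mer-A1 is TCAGGGA and the 6mer is TCAGGG, and each gene was counted under its longest kind, in its longest annotated 3′ UTR. An 8mer was the best match of 2 of the 9 genes, NPL and NEU1, and of 768 of the 12770 tested genes that could be searched (6.01%). Since the set was proposed with the lower level of NPL after this mimic known, nothing is read from that comparison. NEU3 had a 7mer-A1 as its best match. SLC17A5, NANS and NANP had a 6mer alone (for NANS in a 2-exon transcript, which has its longest 3′ UTR), and CTSA, GNE and CMAS had no 6-base match there. Over all searched genes, 37.3% had a match of some kind. In the coding sequence NPL and CMAS had a 6mer, NEU3 a 7mer-A1 and CTSA a 7mer-m8, and the other 5 had none. A match is a string of letters and not a shown site of binding. With the shortest annotated 3′ UTR of each gene, NEU1 alone of the 9 had an 8mer, since the shortest one of NPL (705 bases) had no match.

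**Figure D1:**
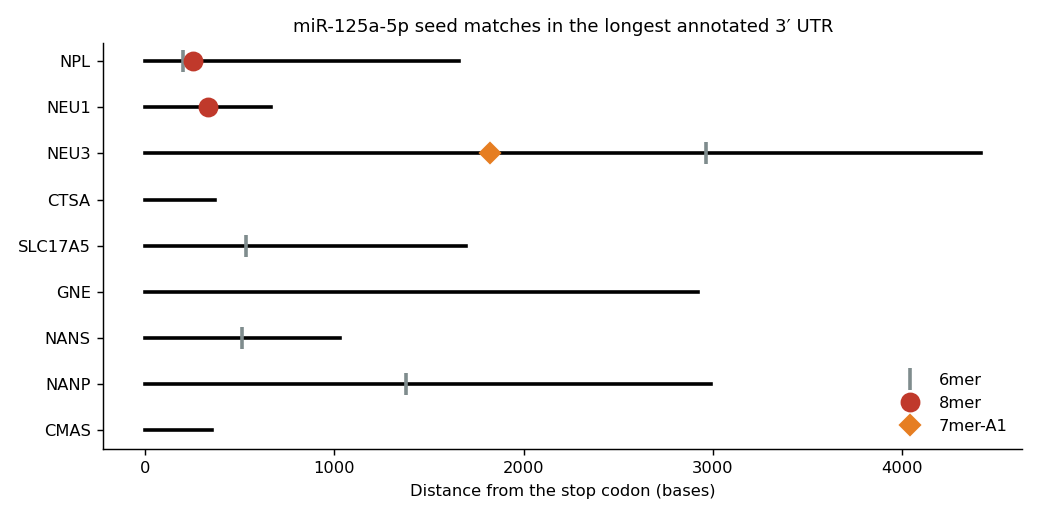
Matches to the miR-125a-5p seed along the longest annotated 3′ UTR of each of the 9 genes; the horizontal axis is the distance from the stop codon in bases, each line is a 3′ UTR drawn to scale, and symbols mark 8mer, 7mer-A1 and 6mer matches. NPL and NEU1 carry the 2 8mers, at bases 251 and 332, and CTSA, GNE and CMAS carry no match.

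The libraries held 8256149 to 10257791 counts, and each of the 9 genes had between 122 and 3274 counts in every library. Levels are given as CPM, a gene’s counts relative to the total of its library, after scaling of the library totals by the trimmed mean of M-values. Monocytic markers were all detected (9 of 9, summing to 1775 to 1857 CPM in miR-125a-5p libraries and 1818 to 1864 CPM in control libraries). They differed widely in level. CSF1R averaged 704 CPM in miR-125a-5p and 792 CPM in control libraries, CD14 17.5 and 18.1 CPM, and MPO only 2.00 and 2.54 CPM. Markers of T, erythroid, epithelial and fibroblast cells summed to at most 3.20 CPM per list, with CD3E, HBB, HBA1, HBA2, KRT5 and KRT19 at 0. The B cell list summed to 44.7 to 62.3 CPM in miR-125a-5p libraries and 53.1 to 86.4 CPM in control libraries, nearly all of it PAX5, while CD79A and MS4A1 had at most 2 counts in a library. Control library 1 stood apart along the leading principal component over genes (a score of 38.2, against -16.3 to -1.14 in the other 5), and some of the values below are also given without it. Along the second component miR-125a-5p library 3 stood apart (-31.1, against -5.24 to 21.5 in the other 5). The leading component held 25% of the variance and the second 21.2%. In bulk RNA a change in the cells present and a change in RNA per cell cannot be told apart.

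Breakdown of sialic acid was represented by NPL, the N-acetylneuraminate lyase. NPL stood at 27.8, 24.5 and 16.2 CPM in miR-125a-5p libraries 1, 2 and 3, against 39.5, 45.6 and 41.9 CPM in control libraries 1, 2 and 3. Every miR-125a-5p library lay below every control library, and miR-125a-5p library 3 was the lowest of all. The means were 22.8 ± 6.0 CPM in miR-125a-5p libraries and 42.3 ± 3.05 CPM in control libraries (SD, n = 3 each), a log2 fold change of -0.89 (SE 0.16). The raw counts behind these values were 237, 225 and 135 in miR-125a-5p libraries and 403, 385 and 379 in control libraries. The log2 fold change lay between -1.06 and -0.70 when any 1 library was left out, the smaller size being the value without miR-125a-5p library 3.

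Release of sialic acid in the lysosome was represented by NEU1, the lysosomal sialidase, whose inherited loss causes sialidosis. NEU1 stood at 43.5, 53.4 and 55.1 CPM in miR-125a-5p libraries 1, 2 and 3, against 67.9, 81.6 and 71.2 CPM in control libraries 1, 2 and 3. Again no library of one group reached the range of the other, but the order of the miR-125a-5p libraries was the reverse of that for NPL: library 1 was the lowest for NEU1 and the highest for NPL. NEU1 averaged 50.6 ± 6.28 CPM in miR-125a-5p libraries and 73.6 ± 7.13 CPM in control libraries (SD, n = 3 each), with a log2 fold change of -0.54 (SE 0.12). Leaving out 1 library gave -0.60 to -0.44.

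NEU3, a sialidase of the plasma membrane that acts mainly on gangliosides, did not follow NEU1. It stood at 17.4, 17.0 and 17.8 CPM in miR-125a-5p libraries and 18.4, 14.4 and 18.3 CPM in control libraries, groups that overlap, with a log2 fold change of 0.03 (SE 0.17). The other sialidases, NEU2 and NEU4, had 0 counts in every library, which allows up to 0.0557 CPM over the 6 libraries together (3 counts, counting error only).

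CTSA, the protective protein cathepsin A that NEU1 needs for stability and activity, stood at 275, 304 and 328 CPM in miR-125a-5p libraries and 321, 334 and 330 CPM in control libraries. The groups overlap, and the log2 fold change was -0.12 (SE 0.09). The ratio of NEU1 to CTSA does not depend on the scaling of a library. Per kilobase of exon it was 0.192, 0.213 and 0.204 in miR-125a-5p libraries, against 0.257, 0.297 and 0.262 in control libraries, with no overlap. The ratio is a description of these libraries and says nothing about either gene alone.

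SLC17A5 encodes sialin, the carrier that exports free sialic acid from the lysosome. It stood at 163, 158 and 160 CPM in miR-125a-5p libraries, against 233, 175 and 160 CPM in control libraries 1, 2 and 3. The control libraries were spread widely, with library 1 far above the rest and library 3 inside the miR-125a-5p range. The log2 fold change was -0.24 (SE 0.11) over all 6 libraries and -0.06 without control library 1, so 1 library carried most of the difference.

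The genes of synthesis showed no separation between the groups. GNE, the bifunctional epimerase and kinase that commits UDP-N-acetylglucosamine to sialic acid and is inhibited by the end product, stood at 39.6 to 48.8 CPM in miR-125a-5p libraries and 43.0 to 46.0 CPM in control libraries, with a log2 fold change of 0.04 (SE 0.12). NANS, the synthase that joins phosphorylated N-acetylmannosamine to phosphoenolpyruvate, ranged from 27.4 to 38.8 CPM in miR-125a-5p libraries and from 27.1 to 35.5 CPM in control libraries, with -0.05 (SE 0.16). NANP, the phosphatase that yields free sialic acid, ranged from 20.8 to 24.9 CPM in miR-125a-5p libraries and from 17.0 to 24.4 CPM in control libraries, with a log2 fold change of 0.15 (SE 0.17). CMAS, which couples sialic acid to CMP in the nucleus as the donor for sialyltransferases, ranged from 118 to 152 CPM in miR-125a-5p libraries and from 98.0 to 136 CPM in control libraries, with 0.18 (SE 0.12). Without control library 1 the log2 fold changes were -0.17 for NANS, 0.28 for NANP and 0.30 for CMAS. The ratio of NPL, the step that destroys sialic acid, to CMAS, the step that activates it, was 0.0742, 0.0770 and 0.0554 per kilobase in miR-125a-5p libraries 1, 2 and 3, against 0.118, 0.189 and 0.144 in control libraries 1, 2 and 3. This ratio too is a description and says nothing about either gene alone. The ratio of NPL to NEU1 overlapped between the groups (0.62, 0.44 and 0.28 against 0.56, 0.54 and 0.57). Those of NEU1 to NEU3 and of NPL to GNE did not overlap, which restates the separation of NEU1 and NPL themselves. They too are a description.

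**Figure D2:**
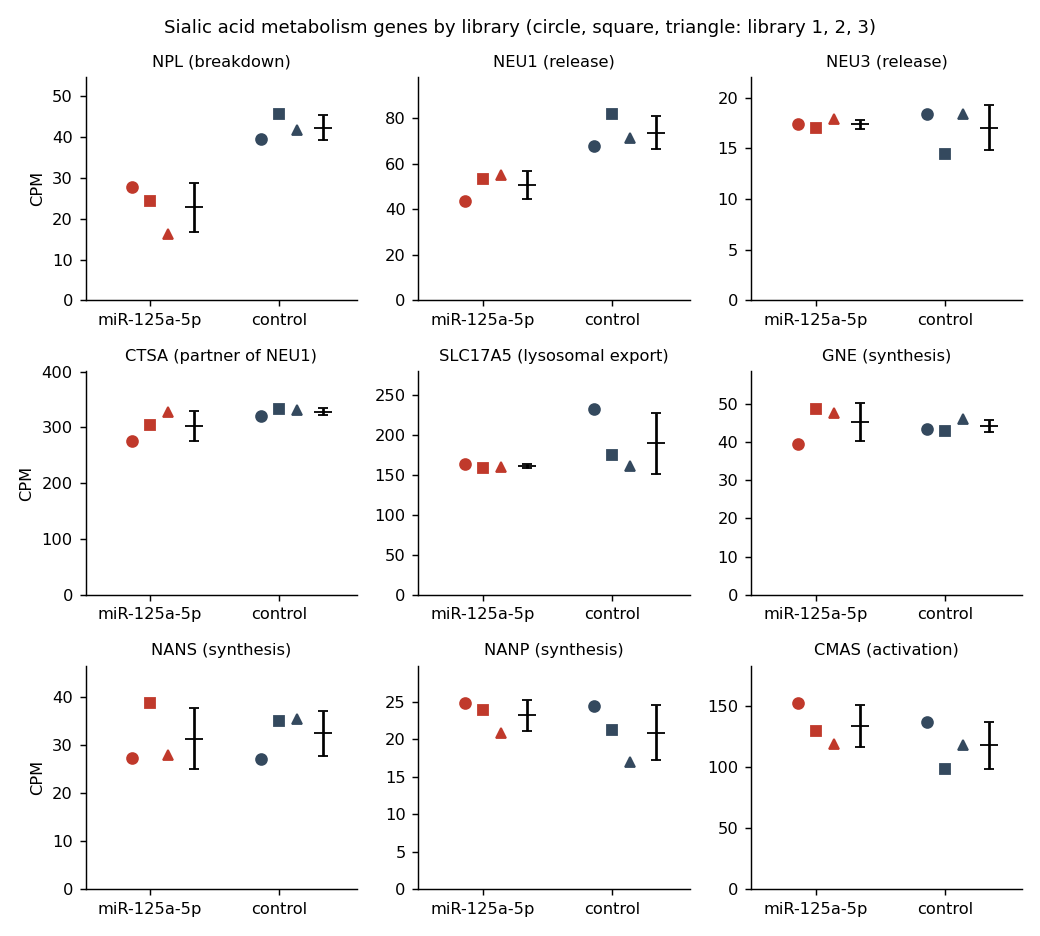
CPM of the 9 genes in each library, with miR-125a-5p libraries in red and control libraries in dark blue; circles, squares and triangles are libraries 1, 2 and 3, and the black bar beside each group is the mean ± SD (n = 3). The groups do not overlap for NPL (16.2 to 27.8 against 39.5 to 45.6 CPM) and NEU1 (43.5 to 55.1 against 67.9 to 81.6 CPM), and they overlap for the other 7.

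Counted over the set, 5 of the 9 genes had a negative log2 fold change and 4 a positive one, with a median of -0.05 (-0.125 to 0.0256 with 1 library left out), beside 49.8% negative and a median of 0.00 over the 14731 tested genes. The quasi-likelihood test of edgeR, adjusted by Benjamini and Hochberg over all tested genes, called 1 of the 9 lower, NPL, and 0.0272% of all tested genes were called lower. No gene of the 9 was called higher, and none of all tested genes was (0%). All miR-125a-5p libraries lay below all control libraries for 2 of the 9, NPL and NEU1, and for 5.9% of all tested genes. Since the set was proposed with this contrast known, nothing is read from these counts. The call of NPL was lost in edgeR fits without control library 2 and without miR-125a-5p library 2 or 3. NEU1, not called in the fit as described, was called by DESeq2 and by edgeR with no filter on low counts.

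**Figure D3:**
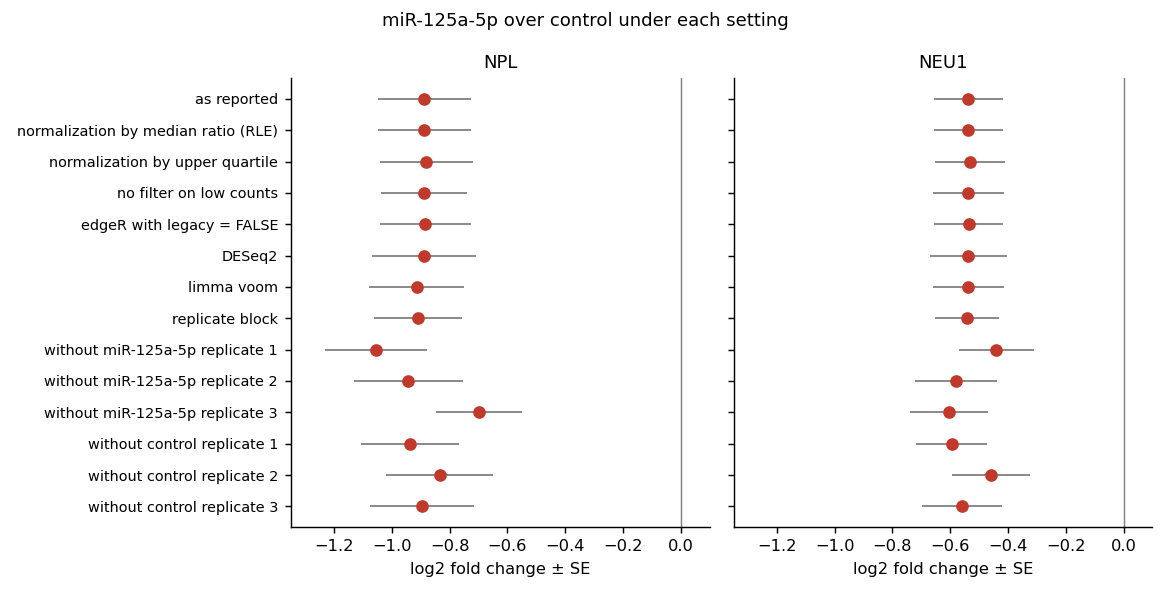
Log2 fold change of NPL and NEU1 (points, with SE as bars) in the fit as described, at the top, and under each other normalization, filter, test and left-out library. NPL lies between -1.06 and -0.70 and NEU1 between -0.60 and -0.44 throughout, and no bar reaches 0.

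Levels were compared between genes only per length, as CPM per kilobase of annotated exon, and their order in control libraries was not part of the choice of the set. CMAS was highest, at 66.0 ± 8.57 in miR-125a-5p libraries and 58.2 ± 9.46 CPM per kilobase in control libraries (SD, n = 3 each). CTSA (51.6 ± 4.52 in miR-125a-5p and 56.1 ± 1.11 in control libraries) and SLC17A5 (44.6 ± 0.717 in miR-125a-5p and 52.5 ± 10.6 in control libraries) came next, and the control ranges of CMAS and CTSA, and of CTSA and SLC17A5, overlap. In control libraries they lay at the 95.7, 95.4 and 95.1 percentiles of 14421 tested genes with a length. NEU1, at 10.5 ± 1.30 in miR-125a-5p libraries and 15.3 ± 1.48 CPM per kilobase in control libraries, lay well below them, without overlap.

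NPL had 4.59 ± 1.21 CPM per kilobase in miR-125a-5p libraries and 8.51 ± 0.613 in control libraries, the 63.8 percentile there. GNE (7.65 ± 0.845 in miR-125a-5p and 7.46 ± 0.266 in control libraries) and NANS (6.37 ± 1.31 in miR-125a-5p and 6.60 ± 0.953 in control libraries) followed closely. The control libraries of NPL and GNE, and of GNE and NANS, lay apart by little. NANP had 5.86 ± 0.534 in miR-125a-5p and 5.28 ± 0.940 in control libraries, and its control range overlapped that of NANS. NEU3 was lowest, at 2.30 ± 0.0589 in miR-125a-5p libraries and 2.26 ± 0.298 CPM per kilobase in control libraries. With the length of the longest transcript, CTSA stood above CMAS (107.5 against 65.7 CPM per kilobase in control libraries) and NANS above GNE (10.7 against 8.34).

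**Figure D4:**
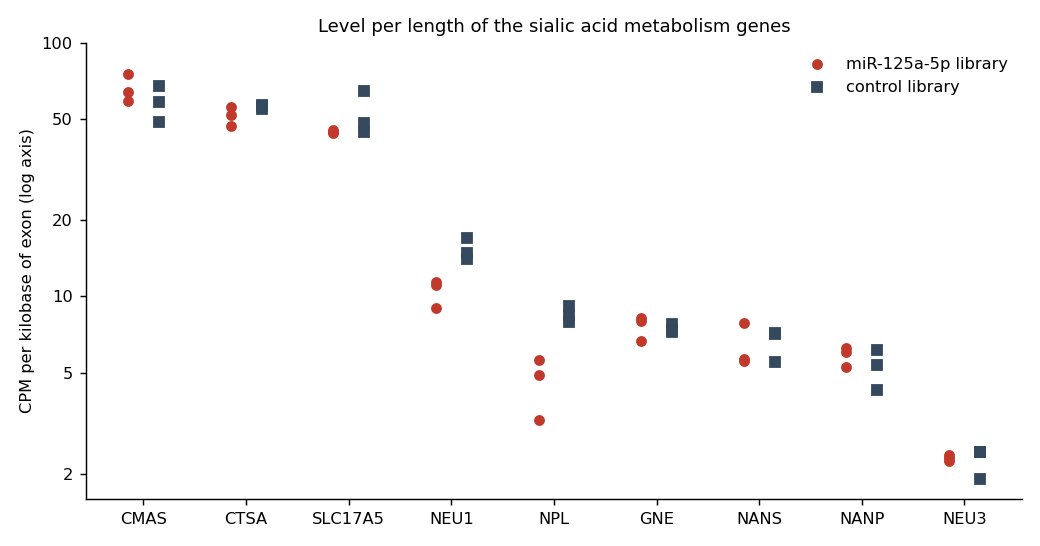
Level of each gene in CPM per kilobase of annotated exon, on a log axis, in each miR-125a-5p library (red circles) and control library (dark blue squares), ordered by the control mean. CMAS, CTSA and SLC17A5 form a high group with control means of 52.5 to 58.2, NEU3 is lowest at 2.26, and NPL and NEU1 are the genes whose 2 colours do not overlap.

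Some of these genes share exon sequence with genes on the other strand, and the strand setting of the counts is not given in the sources used here. TRIM14, at 572 CPM in control libraries, overlaps 8.57% of the exon bases of NANS, and ZNF337-AS1 overlaps 2.77% of those of NANP. PLTP, at 68.8 CPM in control libraries, overlaps 3.42% of those of CTSA, and NEURL2, at 0.321 CPM, overlaps 17.7%. The antisense gene AL008726.1, whose level is not analysed here, overlaps 7.34% of those of CTSA. No annotated exon of another gene overlaps those of NPL, NEU1, NEU3, SLC17A5, GNE or CMAS.

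The genes whose pattern over the 6 libraries was most like that of NPL were sought among 11596 genes with a mean of at least 5 CPM, by the root mean square difference of log2 CPM after each gene was centred on its own mean. The nearest was LOC730668, at 0.167, followed by HSPA7 (0.180), HMGA2-AS1 (0.182), ZSCAN16-AS1 (0.190) and BIN2 (0.194), a membrane-bending protein of blood cells. For scale, NPL itself deviated from its own mean by 0.519. HSPA7 is a near-identical copy of HSPA6, so its counts are uncertain. BIN2 stood at 46.6, 52.7 and 41.2 CPM in miR-125a-5p libraries, against 74.5, 82.9 and 89.0 CPM in control libraries. For all 5, no miR-125a-5p library reached the control range, which the measure itself selects for. Of the 5, edgeR called BIN2 alone (adjusted p = 0.00224, lower in 3 of 3 miR-125a-5p libraries). Of the 9 genes of the set, none was among the 5.

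The surroundings of the pathway were described by 7 lists of 60 other genes, of which 47 passed the filter. The same edgeR test called 0 of the 47 in either direction, and DESeq2 and limma voom also called 0. At an unadjusted p under 0.05, 3 of the 47 were lower and 0 higher by edgeR, beside 3.22% lower and 2.69% higher over all tested genes. DESeq2 and limma voom had 2 of the 47 each at that p in either direction, beside 725 and 869 of all 14731 tested genes. All miR-125a-5p libraries lay below all control libraries for 3 of the 47 and above for 1, beside 5.9% and 5.31% of all tested genes. Their median log2 fold change was -0.05, and 28 of 47 were negative. Without control library 1 the median was 0.00 and 23 were negative. Of the 13 genes that did not pass the filter, 5 had 0 counts in every library: NEU2, NEU4, ST6GALNAC1, ST8SIA2 and MAG.

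Supply of UDP-N-acetylglucosamine, the starting sugar of GNE, had 4 tested genes of 5, with a median log2 fold change of -0.16 and 3 negative values. Without control library 1 the median was -0.04 and 2 were negative. GFPT1, the first and rate-limiting enzyme of the hexosamine pathway, stood at 115, 101 and 108 CPM in miR-125a-5p libraries, against 130, 120 and 126 CPM in control libraries. These groups do not overlap, but its log2 fold change of -0.22 (SE 0.10) did not pass (edgeR adjusted p = 0.821). PGM3, a phosphoacetylglucosamine mutase, had -0.19 and GNPNAT1, an acetyltransferase, -0.13, with edgeR adjusted p of 0.884 and 0.954. GNPNAT1 had 0.10 without control library 1.

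Of the 5 genes that handle N-acetylmannosamine and its products, the sugars downstream of NPL, all 5 had negative values with a median of -0.17, and 0 had an unadjusted p under 0.05. These signs did not hold with fewer libraries: the median was -0.06 without control library 1 and 0.01, with 2 negative values, without control library 2. Without miR-125a-5p library 1, 3 of the 5 were negative. RENBP, an epimerase that turns N-acetylmannosamine into N-acetylglucosamine, had 12, 12 and 2 counts in miR-125a-5p libraries and 54, 9 and 9 counts in control libraries 1, 2 and 3. Its log2 fold change was -1.32 (SE 0.64, edgeR adjusted p = 0.843) and -0.06 without control library 1. NAGK, the N-acetylglucosamine kinase, was the highest of the 5 in CPM, at 54.7 ± 2.84 in miR-125a-5p libraries and 56.2 ± 6.64 in control libraries (SD, n = 3 each). AMDHD2, a deacetylase, had a log2 fold change of -0.32 and GNPDA2, a deaminase, -0.17, with edgeR adjusted p of 0.961 and 0.952. Without control library 1 AMDHD2 had -0.58 and GNPDA2 0.03.

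Sialylation in the Golgi had 14 tested genes of 21, with 6 negative and 8 positive values and a median of 0.08, or 0.01 both without control library 1 and without miR-125a-5p library 3. ST3GAL2, a sialyltransferase of glycolipids and O-linked chains, had the smallest p, at a log2 fold change of -0.46 (SE 0.24, edgeR adjusted p = 0.855). It stood at 13.2, 13.7 and 9.34 CPM in miR-125a-5p libraries, against 22.9, 16.6 and 10.3 CPM in control libraries 1, 2 and 3, and its value was -0.15 without control library 1. ST8SIA4, a polysialyltransferase, had -0.22 (edgeR adjusted p = 0.894) and ST3GAL6 0.20 (0.898). ST3GAL3 was the highest of the list in CPM, at 97.1 ± 5.05 in miR-125a-5p and 94.3 ± 9.46 in control libraries (SD, n = 3 each). The O-acetylation pair, the acetyltransferase CASD1 and the esterase SIAE, had -0.11 and -0.05, with edgeR adjusted p of 0.973 and 0.981. Without miR-125a-5p library 2 both were positive, at 0.12 and 0.02.

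The Siglecs, receptors that bind sialic acid on neighbouring molecules and cells, had 12 tested genes of 15, with 7 negative values and a median of -0.08. With 1 library left out the median lay between -0.21 without control library 3 and -0.06 without miR-125a-5p library 2. In both of those fits 13 Siglecs passed the filter. SIGLEC1, known as sialoadhesin, was the highest in CPM, at 556 ± 26.5 in miR-125a-5p libraries and 609 ± 60.5 in control libraries (SD, n = 3 each), with a log2 fold change of -0.13 (edgeR adjusted p = 0.898). SIGLEC16 stood at 11.4, 9.24 and 9.58 CPM in miR-125a-5p libraries, against 12.2, 14.7 and 14.7 CPM in control libraries, with a log2 fold change of -0.46 (SE 0.20, edgeR adjusted p = 0.799). SIGLEC14 had -0.26 (edgeR adjusted p = 0.833), or -0.12 without control library 1, and SIGLEC9 -0.67 (0.884) at 13 to 20 counts in miR-125a-5p libraries and 23 to 30 counts in control libraries. SIGLEC16 and SIGLEC11, and SIGLEC14 and SIGLEC5, are pairs with near-identical stretches, so reads could have been split between them.

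Lysosomal enzymes that act on the sugar chain beside or after NEU1 had 10 tested genes of 10, with 5 negative and 5 positive values and a median of 0.00, which lay between -0.04 without control library 2 and 0.07 without control library 1. FUCA1, the lysosomal fucosidase, stood at 23.4, 24.7 and 24.4 CPM in miR-125a-5p libraries, against 21.1, 20.01 and 17.5 CPM in control libraries, with no overlap, and its log2 fold change of 0.31 (SE 0.16) did not pass (edgeR adjusted p = 0.850). GALNS, a sulfatase known from a complex with CTSA, NEU1 and beta-galactosidase, had -0.27 (edgeR adjusted p = 0.930). GLB1, the beta-galactosidase itself, stood at 175 ± 29.02 CPM in miR-125a-5p libraries and 173 ± 17.0 CPM in control libraries (SD, n = 3 each), with a log2 fold change of 0.01. GLB1 lay outside the rule for naming genes and was chosen after its values were seen. HEXA, a lysosomal hexosaminidase chain, had a log2 fold change of 0.11 (edgeR adjusted p = 0.939).

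**Figure D5:**
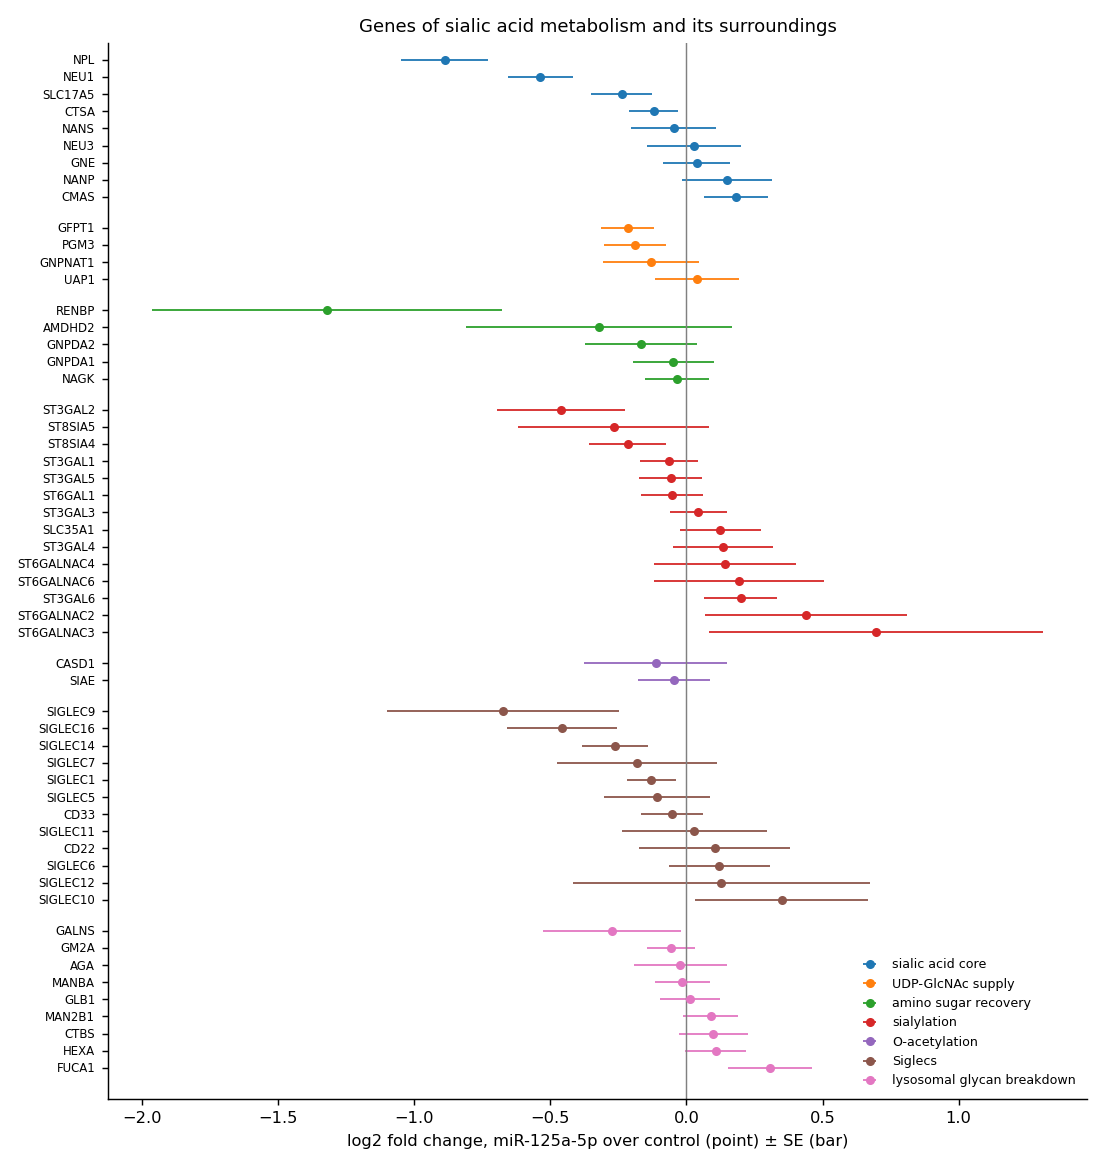
Log2 fold change of miR-125a-5p over control libraries (point) with its SE (bar) for the 9 genes of sialic acid metabolism, at the top, and 46 of the 47 tested genes of the surrounding lists, sorted within each list. NPL at -0.89 and NEU1 at -0.54 lie farthest left among the 9, and the wider values such as RENBP at -1.32 have long bars.

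Of the 46 surrounding genes that were tested and could be searched, 5 held an 8mer in the longest 3′ UTR (10.9%, beside 6.01% of all searched genes): GNPDA1, ST3GAL2, ST6GAL1, ST8SIA4 and ST8SIA5. Their log2 fold changes were -0.05, -0.46, -0.05, -0.22 and -0.27, and none passed. With the shortest annotated 3′ UTR of each gene, ST6GAL1 alone of the 5 had an 8mer. The longest 3′ UTRs of the 5 had 1360, 5711, 2750, 4912 and 12221 bases, beside a median of 1363 over all searched genes. ST8SIA5 had 0.02 without control library 1. The median of the 5 was -0.22, and that of the 41 without an 8mer was -0.02, with 22 of the 41 negative. Over all searched genes the medians were -0.065 for the 768 genes with an 8mer and 0.015 for the 8009 genes with no match. With a shorter best match they were -0.028 for the 7mer-m8, -0.0097 for the 7mer-A1 and 0.011 for the 6mer. The 41 genes above include such shorter matches. Whether the matches cause these differences was not tested. Without control library 1 the median of the 5 was -0.03 and 3 of the 5 were negative.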

How the data were processed

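Raw counts, whole numbers per gene with no normalization, were deposited by the authors as 1 table for 6 libraries of total RNA. The submitters' processing notes name bcl2fastq, TopHat and edgeR with the build hg19 and no versions. For the counting tool, annotation and strand setting, nothing is stated (not given in the sources used here). Columns were matched to libraries by the names in the labels, with 0 left over. Identifiers were named from a RefSeq gene table (26204 of 26347, 99.5%). No replicate pair agreed within sampling noise.

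The test was that of edgeR 4.0.16, run in R 4.3.3 (filterByExpr, 14731 genes tested, trimmed mean of M-values, glmQLFit with the package default, no covariate), with Benjamini-Hochberg adjustment over all tested genes and 0.05 as the threshold. The SE is the size of a log2 fold change divided by the square root of F. The steps were tested on simulated data. Seed matches and exon lengths came from GENCODE 29, on GRCh38, a later build than that of the counts, in 3′ UTRs of at least 20 bases. Per length, 14421 genes (97.9%) had a value. Alternatives used DESeq2 1.42.0, limma 3.58.1 (voom), other scalings, no filter, a replicate block and each library left out.

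The 9 genes and the lists were chosen with earlier results of these data known. The text names, for each list, the called genes, the 3 smallest p, the highest mean CPM and genes with an 8mer. Some genes that the lists hold are counted in them and not reported here by name. For likeness to NPL it names the 5 nearest genes. Library totals limit precision: 122 counts is the lowest value of the set.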

Additional observations from a re-analysis of the deposited data

How the results depend on the processing

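The edgeR fit called 4 genes lower and 0 higher. DESeq2 called 11 lower and 2 higher, edgeR with no filter on low counts 41 lower and 11 higher, and edgeR with the replicate number as a block 9 lower. Leaving out 1 library gave 3 to 14 lower, the highest without control library 3, and 0 to 2 higher, the highest without miR-125a-5p library 3. The labels do not say whether the replicate numbers pair the libraries. Deviations of same-numbered libraries from their group means correlated at 0.0558, 0.0138 and -0.0156, which with so few libraries cannot settle it. Not every library correlated best with its own number. With the block NPL was -0.91 and NEU1 -0.54, and the block changed no call among the 9 genes or the lists. All 9 genes kept their log2 fold change within the replicate SD under every alternative run. Leaving out 1 library gave ranges across 0 for NEU3 (-0.08 to 0.08), GNE (-0.02 to 0.12) and NANS (-0.23 to 0.04). Ranges were -0.19 to -0.06 for CTSA, -0.34 to -0.06 for SLC17A5, 0.02 to 0.28 for NANP and 0.07 to 0.30 for CMAS. Among other named genes, none called, leaving out 1 library turned the sign within these ranges: GNPDA1 (-0.18 to 0.093), NAGK (-0.090 to 0.063), CASD1 (-0.28 to 0.12), SIAE (-0.10 to 0.022), GNPNAT1 (-0.24 to 0.10), GNPDA2 (-0.26 to 0.028), ST8SIA5 (-0.50 to 0.021), ST6GAL1 (-0.094 to 0.0036), ST3GAL3 (-0.041 to 0.094) and AMDHD2 (-0.58 to 0.15). HSPA7 passed with no filter. With the longest transcript as length, control levels in CPM per kilobase were 13.98 for NPL, 107.5 for CTSA, 8.34 for GNE and 10.7 for NANS. Leaving out 1 control library gave 8.18 to 8.79 for NPL, 55.7 to 56.7 for CTSA, 7.31 to 7.56 for GNE and 6.30 to 7.15 for NANS. An 8mer was the best match of 1 gene in the shortest 3′ UTR and of 0 in the coding sequence, against 2 in the longest. The cause of these shifts was not tested.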
